A study of Homo sapiens with 18 samples.

Results

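The genes described here are 8 nuclear-encoded genes of mitochondrial respiration, NDUFA4, NDUFA4L2, COX4I1, COX4I2, LONP1, HIGD1A, HIGD2A and CHCHD4. They were chosen by name, and all 8 were found among the 23106 genes counted in each of 18 samples. PolyA+ RNA was sequenced from 3 established human cell lines, each kept in normoxia or in hypoxia, with 3 replicates per condition. HKC-8 is a line from the kidney proximal tubule, RCC4 a line from a kidney cancer and HepG2 a line from a hepatocellular cancer, so each tissue is represented by a single line. The labels give normoxia (21% oxygen in the titles) and 0.5% oxygen for 16 h for HKC-8 cells, although sample titles name 0.1% for the hypoxic ones. HepG2 samples were normoxic or exposed to 0.5% oxygen for 16 h. All RCC4 samples are labelled RCC4+VHL, that is, both conditions carry VHL, the tumour suppressor whose product marks HIF-α subunits for destruction in oxygenated cells. Their labels give 1% oxygen for 24 h, whereas the text of the study gives 0.5% for 16 h for RNA-seq of all 3 lines, and the titles of all 6 RCC4 samples mark them as replacements. The labels do not say whether replicates came from separate cultures, so p-values measure the spread between these samples, which may be technical.

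Cytochrome c oxidase, or complex IV, passes electrons from cytochrome c to oxygen at the end of the respiratory chain. Some of its subunits exist as alternative forms encoded by separate genes, and cells short of oxygen have been described to exchange COX4I1 for COX4I2 and to raise NDUFA4L2, a relative of the complex IV subunit NDUFA4. LONP1 is the mitochondrial matrix protease that has been linked to the removal of COX4I1 protein, HIGD1A and HIGD2A are small inner membrane proteins that bind or help to assemble complex IV, and CHCHD4 is the oxidoreductase that traps cysteine-rich proteins in the intermembrane space. The comparisons ask whether each of these transcripts changed with oxygen and whether the balance within each pair moved. The exchange named by the pairs was seen here only in part. NDUFA4L2 rose in hypoxic HKC-8 and HepG2 cells but stayed far below NDUFA4, and COX4I2 was at 0 counts in 15 of 18 samples.

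Depth was greatest in HKC-8 cells, with totals of 75441764 to 97984260 counts per sample. It was 42045335 to 51794355 for RCC4 and 40915980 to 48355303 for HepG2, so that 3 counts in a sample equal 0.0306 to 0.0733 CPM, the usual scaling of counts to the total of their sample. ALB averaged 10494 CPM in normoxic HepG2 and 0.012 in normoxic HKC-8 cells and was at 0 in normoxic RCC4 cells, and the kidney transcription factor PAX8 averaged 9.23 CPM in HepG2, 169 in HKC-8 and 130 in RCC4 cells. The proximal tubule receptors LRP2 and CUBN were at 0 and 0.0493 CPM in normoxic HKC-8 cells, and CUBN rose to 0.485 CPM in hypoxia there (log2 fold change 3.29, edgeR adjusted p = 0.00437). CUBN passed the filter on low counts only with its hypoxic samples, so this p is no independent support. Some markers of other cell types were called too. Of 7 pericyte and smooth muscle markers, 1 of 4 tested rose in RCC4, 1 of 6 in HKC-8 and 2 of 6 in HepG2 cells. Among all genes tested 25.9%, 11.2% and 19.9% rose, so counts this small say little about the list. In HepG2 cells the summed level of the 7 went from 77.0 to 82.2 CPM in normoxia to 110.5 to 114 CPM in hypoxia. PDGFRB went from 21.2 to 56.7 CPM there and ACTA2 from 46.2 to 42.4 CPM. Of 8 kidney tubule markers, 2 of 5 tested rose in HKC-8 and 2 of 5 in HepG2 cells. In RCC4 cells 2 rose and 3 fell of 7 tested, where 24.2% of all genes fell. The macrophage marker CD68 rose in HepG2 cells (log2 fold change 0.39) and the endothelial marker VWF in HKC-8 cells (1.91, from 0.107 CPM). VWF, like CUBN, passed the filter there only with its hypoxic samples. In HepG2 cells 4 of 8 liver markers rose, from summed levels of 34219 to 35665 CPM to 41290 to 44765 CPM. Their part in the results was not tested. Of 10 genes listed as hypoxia-induced that act on mitochondria or divert carbon from them, 9 rose in every line by edgeR's quasi-likelihood test at an adjusted p under 0.05, as described at the end for the whole list. Each line was fitted on its own, and CPM below are normalized by the trimmed mean of M-values (TMM).

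NDUFA4 (GRCh37 chromosome 7, 10971570 to 10979780, reverse strand) and NDUFA4L2 (chromosome 12, 57628686 to 57634498, reverse strand) are separate genes. Their coding sequences are shown because the comparison of the pair rests on telling their reads apart. They hold 246 and 264 bases, and 158 of 246 aligned bases are identical (64.2%). The longest run shared by the main transcripts is 14 bases. Below, from the GENCODE transcripts on GRCh37, capitals mark bases that differ from the other gene or face a gap.
NDUFA4: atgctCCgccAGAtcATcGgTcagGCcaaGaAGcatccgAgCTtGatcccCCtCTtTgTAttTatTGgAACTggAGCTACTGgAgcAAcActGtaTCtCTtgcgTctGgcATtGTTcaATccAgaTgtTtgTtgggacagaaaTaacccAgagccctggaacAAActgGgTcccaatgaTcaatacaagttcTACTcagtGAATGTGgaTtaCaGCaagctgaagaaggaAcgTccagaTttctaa
NDUFA4L2: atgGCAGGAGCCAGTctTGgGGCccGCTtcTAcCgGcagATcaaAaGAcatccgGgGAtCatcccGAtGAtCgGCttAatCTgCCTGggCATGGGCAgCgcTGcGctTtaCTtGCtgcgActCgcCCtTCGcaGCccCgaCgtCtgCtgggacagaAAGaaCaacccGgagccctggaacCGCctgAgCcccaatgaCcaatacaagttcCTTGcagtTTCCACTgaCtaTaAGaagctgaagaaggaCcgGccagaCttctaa

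COX4I1 (chromosome 16, 85832239 to 85840674, forward strand) and COX4I2 (chromosome 20, 30225715 to 30232809, forward strand) were identical at 320 of 506 aligned coding bases (63.2%), with a longest shared run of 20 bases. HIGD1A (chromosome 3, 42824400 to 42845982, reverse strand) and HIGD2A (chromosome 5, 175815752 to 175816762, forward strand) were identical at 146 of 264 aligned bases (55.3%). LONP1 lies on chromosome 19 (5691845 to 5720583, reverse strand) and CHCHD4 on chromosome 3 (14153577 to 14166370, reverse strand). The GENCODE annotation names 17 pseudogenes of HIGD1A, 4 of CHCHD4 and 2 each of NDUFA4, COX4I1 and HIGD2A. Fragments without a unique position were discarded by the authors, so reads of these genes may be missing for that reason. No pseudogene is named for NDUFA4L2, COX4I2 and LONP1. The levels of COX4I2, and of NDUFA4L2 in HKC-8 and RCC4 cells, are nevertheless uncertain because they rest on few counts. HIGD2A lies wholly within the annotated span of ARL10 on the same strand, and whether the authors' gene set held that overlap is not given in the sources used here. HIGD1A is overlapped on its own strand by a protein-coding gene known only by its identifier, ENSG00000280571, over 21583 bases, and by a long non-coding RNA over 19404 bases. NOP16 overlaps HIGD2A by 177 bases on the opposite strand. SHMT2, EMC8 and RPL36 overlap the ends of NDUFA4L2, COX4I1 and LONP1 on the opposite strand by 33, 976 and 42 bases. Whether counting used the strand is not given in the sources used here.

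NDUFA4L2 had the largest rise among the members that passed the filter on low counts. In HepG2 cells, its counts were 6, 14 and 16 in normoxia and 263, 274 and 213 in hypoxia, or 0.271 ± 0.124 CPM and 5.78 ± 0.375 CPM (SD, n = 3). Every hypoxic sample lay far above every normoxic one. The log2 fold change was 4.41 ± 0.25 (SE), a 21.2-fold rise with an edgeR adjusted p of 1.31e-08, and ranked 29 from the top among 13623 genes tested. The normoxic samples alone would not have passed the filter on low counts, so the gene was tested only because of its hypoxic samples. This p is therefore no independent support. The gene was also called in the 6 other settings that tested it, no filter on low counts among them. In bulk RNA, fewer cells with a transcript and less of it per cell cannot be told apart, here or below.

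In HKC-8 cells, the counts of NDUFA4L2 were 6, 0 and 2 in normoxia and 14, 32 and 30 in hypoxia. The groups did not overlap, but the normoxic level of 0.0322 ± 0.0379 CPM was at the limit of 3 counts, and the gene passed the filter on low counts only through its hypoxic samples. The log2 fold change was 3.16 ± 0.73 (SE; edgeR adjusted p = 0.0174). Because of that filter this p is no independent support, and without a filter on low counts the log2 fold change was 3.15 (edgeR adjusted p = 0.0143). The summed counts of 76 and 8 give a ratio of 9.38 with an exact 95% counting interval of 4.53 to 22.5. Without hypoxic replicate 3 the call was lost (log2 fold change 2.96, edgeR adjusted p = 0.0556), and without normoxic replicate 1, which held 6 of the 8 normoxic counts, the log2 fold change was 4.48. Intervals of this kind, here and below, cover counting error only.

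RCC4 cells did not show this rise. NDUFA4L2 had 6, 9 and 9 counts in normoxic and 0, 2 and 6 counts in hypoxic RCC4 cells, too few to pass the filter. Without the filter the log2 fold change was -1.57 (edgeR adjusted p = 0.16), and in a single fit of all 18 samples it was -1.58 (edgeR adjusted p = 0.149), so no change was called. The groups overlapped, and the summed counts of 24 and 8 give a ratio of 0.309 (exact 95% counting interval 0.12 to 0.712). The exposure given for RCC4 cells differs from that of the other lines, so line and exposure cannot be told apart.

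NDUFA4, the more abundant partner and a subunit of complex IV, fell in HepG2 and RCC4 cells. In HepG2 cells it read 214, 252 and 169 CPM in normoxia and 153, 141 and 157 CPM in hypoxia. The normoxic samples were widely spread, yet all lay above the hypoxic ones. NDUFA4 fell by 29.1% (log2 fold change -0.50 ± 0.11 SE, edgeR adjusted p = 0.00312). In RCC4 cells it read 246, 259 and 272 CPM in normoxia and 223, 231 and 234 CPM in hypoxia, again without overlap. There it fell by 11.4% (log2 fold change -0.17 ± 0.04 SE, edgeR adjusted p = 4.74e-04), a call that was lost in a single fit of all 18 samples (adjusted p = 0.20). In HKC-8 cells the groups overlapped, at 54.1, 50.6 and 48.9 CPM in normoxia and 48.6, 51.0 and 44.2 CPM in hypoxia, and the log2 fold change was -0.10 (95% interval -0.26 to 0.07).

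The share of NDUFA4L2 within the pair was therefore small in every group. Per kilobase of merged exons, NDUFA4L2 made up 0.166 ± 0.0984% of the pair's reads in normoxic and 4.55 ± 0.415% in hypoxic HepG2 cells (SD, n = 3). It made up 0.0752 ± 0.0856% in normoxic and 0.769 ± 0.293% in hypoxic HKC-8 cells, and 0.0792 ± 0.0185% and 0.0288 ± 0.0332% in RCC4 cells. Taking the longest transcript of each gene instead put the share in hypoxic HepG2 cells at 6.14%, and the canonical transcript put it at 7.68%. In hypoxic HKC-8 cells the canonical transcript gave 1.34%. NDUFA4 remained the main form under all 3 lengths.

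On the scale of log2 ratios of counts, with 0.5 added to each count, NDUFA4L2 over NDUFA4 changed by 4.95 in HepG2, by 3.67 in HKC-8 and by -1.91 in RCC4 cells. With samples at or near 0 these values depend on what is added, and with 5 added to each count they were 4.48, 2.08 and -0.68. The exact two-sided permutation test within a line cannot go below p = 0.1, which HKC-8 and HepG2 cells reached, and RCC4 cells gave p = 0.2. Averaged over the 3 lines the change was 2.24 (exact permutation p = 0.0335 over 8000 relabelings within lines), and the p adjusted over the 3 pairs tested was 0.0859, which misses the threshold of 0.05. Without HKC-8 cells the average was 1.52 (exact permutation p = 0.26), and without HepG2 cells it was 0.88 (exact permutation p = 0.47). Without RCC4 cells, where the change was negative, the average lay between the 3.67 of HKC-8 and the 4.95 of HepG2 cells.

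COX4I2, the form of subunit IV best known from the lung, was barely detected. It had 10, 2 and 3 counts in the hypoxic HepG2 samples and 0 counts in every other sample. The summed level in hypoxic HepG2 cells was 0.112 CPM (exact 95% Poisson interval 0.0628 to 0.185). That is 4.83-fold the 0.0232 CPM that 3 counts over the normoxic HepG2 group equal. The ratio is no lower bound, since it leaves out that interval and the normoxic 0 counts allow up to 0.0285 CPM (exact 95% Poisson limit). Replicate 1 supplied most of these reads: without it 5 counts remained, and the ratio was 2.41-fold. COX4I2 did not pass the filter in any line. By the same exact limit the 0 counts allow up to 0.0148 CPM in normoxic and 0.0146 in hypoxic HKC-8 cells, and up to 0.0261 and 0.0242 CPM in RCC4 cells.

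COX4I1, the common form of subunit IV, hardly moved. HepG2 cells held 266, 276 and 242 CPM in normoxia and 257, 259 and 264 CPM in hypoxia. HKC-8 cells held 191, 217 and 201 CPM in normoxia and 191, 228 and 199 CPM in hypoxia. RCC4 cells held 405, 425 and 438 CPM in normoxia and 416, 420 and 411 CPM in hypoxia. The groups overlapped in all 3 lines. The 95% intervals of the log2 fold change were -0.13 to 0.11 in HepG2, -0.16 to 0.20 in HKC-8 and -0.09 to 0.04 in RCC4 cells, and COX4I1 was not called in any line. With scaling by the total count alone it was called lower in RCC4 cells (log2 fold change -0.11, edgeR adjusted p = 0.00835).

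The share of COX4I2 in its pair, per kilobase of merged exons, was 0.324 ± 0.284% in hypoxic HepG2 cells (SD, n = 3). It was 0.266% with the longest and 0.0516% with the canonical transcript of each gene. Its log2 ratio to COX4I1 rose by 3.23 in HepG2 cells (exact permutation p = 0.1, the smallest this design allows). Since COX4I2 was at 0 in normoxia, that size is set by the 0.5 added, and it was 2.40 with 1 and 0.97 with 5 added. In the other lines the ratio followed COX4I1 alone, since COX4I2 was at 0, and changed by -0.03 in HKC-8 and -0.01 in RCC4 cells. The average over lines was 1.06 (exact permutation p = 0.0573, adjusted p = 0.0859), or 0.31 with 5 added, and without HepG2 cells it was -0.02.

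**Figure D1:**
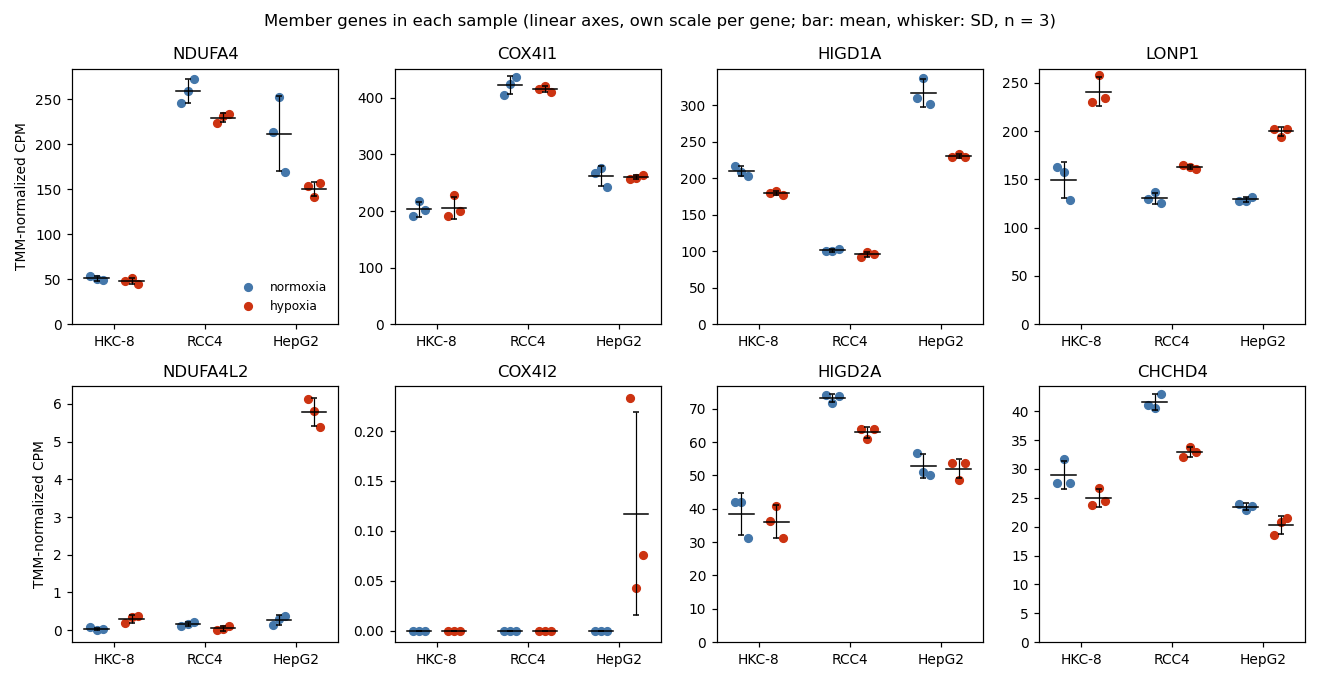
TMM-normalized CPM of the 8 genes (vertical axes, linear, with a scale for each gene) in each sample of the 3 cell lines, in blue for normoxia and red for hypoxia, with bars at the mean and whiskers of 1 SD (n = 3). NDUFA4L2 reached 5.78 CPM in hypoxic HepG2 cells, LONP1 was higher in hypoxia in every line, and COX4I2 was at 0 outside hypoxic HepG2 cells.

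**Figure D2:**
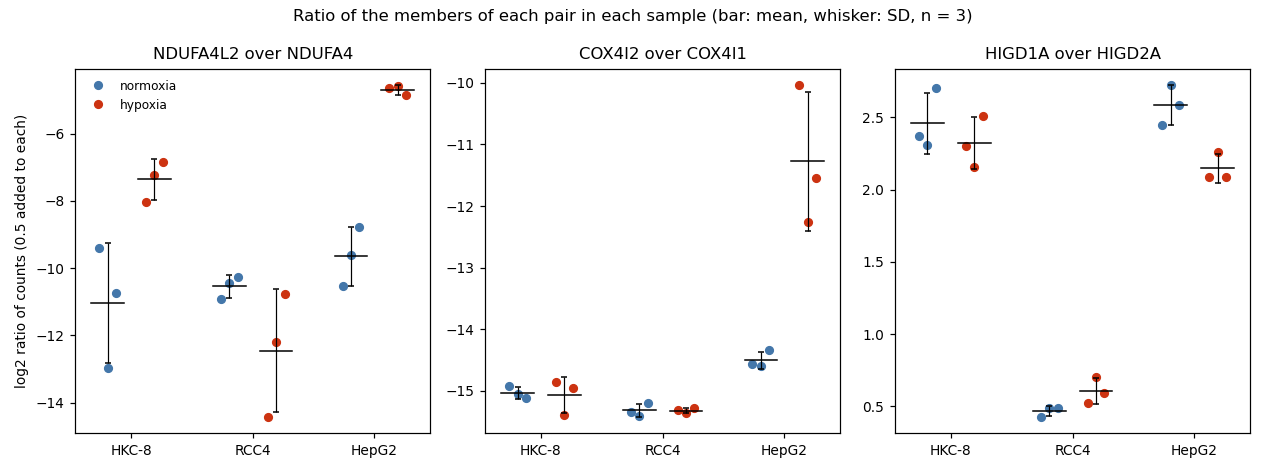
The log2 ratio of counts within each pair (vertical axes, 0.5 added to each count) in each sample, in blue for normoxia and red for hypoxia, with bars at the mean and whiskers of 1 SD (n = 3). NDUFA4L2 over NDUFA4 rose by 3.67 in HKC-8 and 4.95 in HepG2 cells and changed by -1.91 in RCC4 cells, and HIGD1A over HIGD2A moved in opposite directions in RCC4 and HepG2 cells.

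LONP1, the ATP-dependent matrix protease, was higher in hypoxia in all 3 lines, with no overlap between groups. HKC-8 cells read 163, 157 and 129 CPM in normoxia and 230, 258 and 235 CPM in hypoxia, a rise of 60.9% (log2 fold change 0.69 ± 0.10 SE, edgeR adjusted p = 0.00308). HepG2 cells read 128, 128 and 132 CPM in normoxia and 202, 194 and 203 CPM in hypoxia, a rise of 54.5% (log2 fold change 0.63 ± 0.06 SE, edgeR adjusted p = 1.46e-06). RCC4 cells read 130, 137 and 125 CPM in normoxia and 165, 163 and 160 CPM in hypoxia, a rise of 24.6% (log2 fold change 0.32 ± 0.04 SE, edgeR adjusted p = 2.68e-07). LONP1 was called in each line under every alternative tried, including each sample left out in turn.

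The members that rose can be set beside their promoters. The windows run from 250 bases before to 50 bases after the start of transcription (RefSeq, GRCh38.p14), and 7 of the 8 members matched the table by symbol or by the current symbols COXFA4 and COXFA4L2 of NDUFA4 and NDUFA4L2. They are shown for NDUFA4L2 and LONP1, which rose, and for NDUFA4, which did not. Capitals mark ACGTG or GCGTG on either strand (CACGT or CACGC when read here), the core of the hypoxia response element to which HIF binds, and CACGTG counts on both strands.
NDUFA4L2, chr12:57240713-57241012, reverse strand: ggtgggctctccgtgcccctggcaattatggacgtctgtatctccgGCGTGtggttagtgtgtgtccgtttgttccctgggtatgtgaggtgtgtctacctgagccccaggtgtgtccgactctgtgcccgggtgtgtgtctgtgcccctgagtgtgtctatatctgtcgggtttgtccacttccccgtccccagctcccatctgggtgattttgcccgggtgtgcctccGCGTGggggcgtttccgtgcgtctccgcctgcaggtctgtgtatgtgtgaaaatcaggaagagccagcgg
LONP1, chr19:5720097-5720396, reverse strand: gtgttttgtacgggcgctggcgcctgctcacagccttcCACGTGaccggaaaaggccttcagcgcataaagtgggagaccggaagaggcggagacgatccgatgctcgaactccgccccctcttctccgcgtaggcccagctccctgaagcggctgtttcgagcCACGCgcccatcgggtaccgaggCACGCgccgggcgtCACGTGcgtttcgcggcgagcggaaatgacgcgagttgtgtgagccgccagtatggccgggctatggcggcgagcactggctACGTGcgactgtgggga
NDUFA4, chr7:10940104-10940403, reverse strand: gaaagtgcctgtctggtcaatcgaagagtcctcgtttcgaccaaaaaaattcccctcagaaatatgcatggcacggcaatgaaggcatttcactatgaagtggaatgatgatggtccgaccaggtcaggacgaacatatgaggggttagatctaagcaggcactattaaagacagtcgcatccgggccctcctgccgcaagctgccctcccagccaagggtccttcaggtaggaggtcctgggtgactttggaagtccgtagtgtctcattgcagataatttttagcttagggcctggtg

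Of 35116 promoter windows in the table, 48.4% held at least 1 match and 23.1% at least 2. The NDUFA4L2 window held 2 matches, both GCGTG on the gene's own strand, and a second window that overlaps it held the same ones. The LONP1 window held 7 matches, of which 5 were ACGTG and 4 came from CACGTG read on both strands, and a second LONP1 window held 1. The NDUFA4 and COX4I1 windows held 0 matches in these letters. HIGD1A had 3 matches, HIGD2A 2 and CHCHD4 1, so matches were also present in members that did not rise.

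HIGD1A, whose name comes from its induction by hypoxia in other cells, was not higher in hypoxia in any of these lines. In HepG2 cells it read 310, 338 and 301 CPM in normoxia and 228, 233 and 229 CPM in hypoxia, and fell by 27.2% (log2 fold change -0.46 ± 0.06 SE, edgeR adjusted p = 6.06e-05). In HKC-8 cells it read 217, 209 and 204 CPM in normoxia and 180, 182 and 177 CPM in hypoxia. These groups did not overlap either, but the log2 fold change of -0.22 ± 0.07 (SE) missed the threshold (edgeR adjusted p = 0.0526). With the replicate number as a block, which pairs the HKC-8 samples, HIGD1A was called lower there (edgeR adjusted p = 0.00831), and DESeq2 (adjusted p = 0.0277) and the fit of all 18 samples (edgeR adjusted p = 0.00261) also called it. RCC4 cells read 100.0, 101 and 103 CPM in normoxia and 92.1, 99.3 and 96.3 CPM in hypoxia, again without overlap. The log2 fold change in RCC4 cells was -0.08 (95% interval -0.16 to 0.00) with an edgeR adjusted p of 0.102. Scaling by the total count alone gave -0.16 there (edgeR adjusted p = 0.00138).

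HIGD2A, an assembly factor of complex IV and of respiratory supercomplexes, fell in RCC4 cells and was not called in the other lines. RCC4 cells read 74.2, 71.8 and 73.7 CPM in normoxia and 64.0, 60.9 and 63.9 CPM in hypoxia, and HIGD2A fell by 14.1% (log2 fold change -0.22 ± 0.04 SE, edgeR adjusted p = 1.51e-04). This call was lost in a single fit of all 18 samples (edgeR adjusted p = 0.129). In HKC-8 cells the log2 fold change was -0.09 (95% interval -0.36 to 0.19) and in HepG2 cells -0.02 (95% interval -0.16 to 0.12), with overlapping groups in both. Whether RCC4 cells differed from the other lines was not tested.

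The ratio of HIGD1A to HIGD2A fell in HepG2 cells by 0.44 on the log2 scale, and every hypoxic sample lay below every normoxic one (exact permutation p = 0.1, the smallest possible). In RCC4 cells it was higher in hypoxia by 0.14, with every hypoxic sample above every normoxic one (exact permutation p = 0.1). In HKC-8 cells the change was -0.14 and the groups overlapped (exact permutation p = 0.4). Averaged over lines the change was -0.15 (exact permutation p = 0.12, adjusted p = 0.12). Without RCC4 cells it was -0.29 (exact permutation p = 0.025), and without HepG2 cells it was 0.0016.

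CHCHD4, the import oxidoreductase, passed the test in RCC4 cells, and in all 3 lines every hypoxic sample lay below every normoxic one, as for HIGD1A. Within a single line this held for 25.2% of all genes in HepG2, 19.1% in HKC-8 and 27.6% in RCC4 cells. RCC4 cells read 41.2, 40.6 and 43.1 CPM in normoxia and 32.0, 33.9 and 33.0 CPM in hypoxia, and CHCHD4 fell by 20.7% (log2 fold change -0.33 ± 0.05 SE, edgeR adjusted p = 7.77e-06). HepG2 cells read 24.0, 22.8 and 23.7 CPM in normoxia and 18.6, 20.8 and 21.5 CPM in hypoxia. There the log2 fold change was -0.21 ± 0.08 SE and just missed the threshold (edgeR adjusted p = 0.0502). It passed with the total count alone (log2 fold change -0.31, edgeR adjusted p = 0.00781) and without hypoxic replicate 3 (log2 fold change -0.26, edgeR adjusted p = 0.0472), in the fit of all 18 samples (edgeR adjusted p = 0.0455) and with the replicate block (edgeR adjusted p = 0.043). HKC-8 cells read 27.6, 31.7 and 27.5 CPM in normoxia and 23.8, 26.6 and 24.4 CPM in hypoxia, a log2 fold change of -0.21 ± 0.10 SE (edgeR adjusted p = 0.153). With the replicate block CHCHD4 was called lower in HKC-8 cells (edgeR adjusted p = 0.0262), as in the fit of all 18 samples (edgeR adjusted p = 0.0313).

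**Figure D3:**
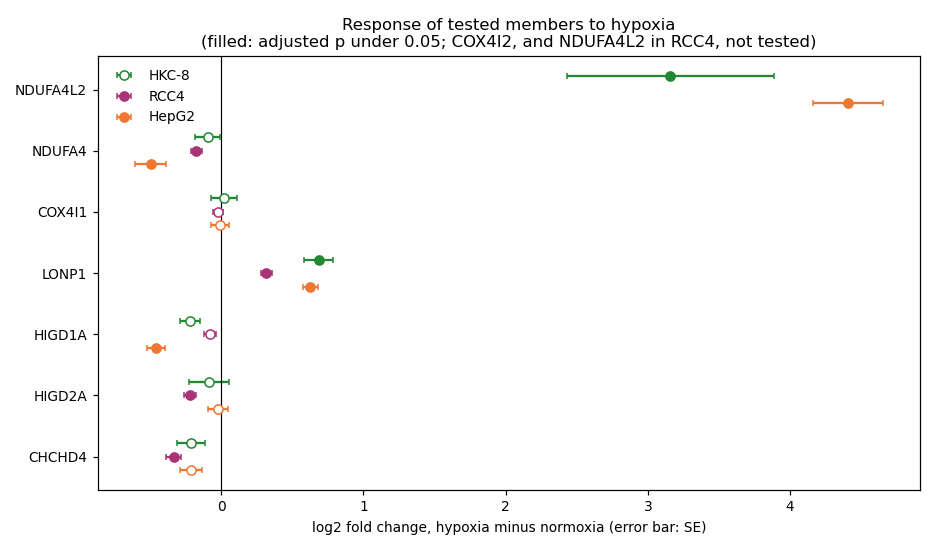
The log2 fold change in hypoxia (horizontal axis, error bars 1 SE) of the members tested in HKC-8 (green), RCC4 (purple) and HepG2 cells (orange), with filled points where the edgeR adjusted p was under 0.05. LONP1 lay to the right of 0 in all 3 lines at 0.32 to 0.69, NDUFA4L2 at 3.16 and 4.41 in the lines where it was tested, and COX4I1 between -0.02 and 0.02.

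Counted by line, 2 members rose in HKC-8 cells (NDUFA4L2 and LONP1) and 0 fell by edgeR, of 7 tested, against 11.2% higher and 9.12% lower among all 13536 genes tested. NDUFA4L2 passed the filter only through its hypoxic samples, and with at least 10 counts in every sample LONP1 alone was called. HIGD1A had an unadjusted p of 0.0111 there. With the replicate block, which moved both counts over all genes, 2 members rose and 2 fell in HKC-8 cells, against 21% higher and 21.6% lower. In RCC4 cells 1 member rose and 3 fell of 6 tested, against 25.9% higher and 24.2% lower of 12811 genes. In HepG2 cells 2 rose and 2 fell of 7 tested, against 19.9% higher and 19.2% lower of 13623 genes. NDUFA4L2 is 1 of those that rose, and there too it passed the filter only with its hypoxic samples. Groups without overlap were common among all genes: every hypoxic sample was higher for 24.8% of genes in HepG2, 20% in HKC-8 and 28.8% in RCC4 cells, and every one lower for 25.2%, 19.1% and 27.6%. The shares of called genes depended on scaling. With the total count alone, 2289 genes were higher and 4651 lower in RCC4 cells in place of 3318 and 3105, and 1978 higher and 4081 lower in HepG2 cells in place of 2708 and 2621.

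The difference in response between HepG2 and HKC-8 cells, which share the labelled exposure, was tested as an interaction over 12 samples. edgeR called 0 of 7 members tested, against 5.02% higher and 4.28% lower in HepG2 cells among 15046 genes. NDUFA4 and HIGD1A had an unadjusted p under 0.05. For NDUFA4L2 the responses differed by 1.27 on the log2 scale (95% interval -0.50 to 3.05, edgeR adjusted p = 0.432), and without normoxic HKC-8 replicate 1 by -0.02. For NDUFA4 the difference was -0.39 (95% interval -0.70 to -0.09, edgeR adjusted p = 0.136). It was called without normoxic HepG2 replicate 3, at -0.53 (edgeR adjusted p = 0.0153). For HIGD1A it was -0.23 (edgeR adjusted p = 0.119), and DESeq2 (adjusted p = 0.0423), the total count alone (edgeR adjusted p = 0.0272) and the replicate block (edgeR adjusted p = 0.0468) each called it. For LONP1 the responses differed by -0.06 (95% interval -0.29 to 0.18).

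Between lines in normoxia, most members differed. RCC4 cells were higher than HKC-8 cells in NDUFA4 (log2 difference 2.41), NDUFA4L2 (2.36), COX4I1 (1.13), HIGD2A (1.00) and CHCHD4 (0.59) and lower in HIGD1A (-0.98), that is, 5 higher and 1 lower of 7 tested by edgeR, against 39.4% and 41.4% of 14806 genes. HepG2 cells were higher than HKC-8 cells in NDUFA4L2 (log2 difference 3.08), NDUFA4 (2.14), HIGD1A (0.69), HIGD2A (0.55) and COX4I1 (0.46) and lower in CHCHD4 (-0.21), again 5 and 1 of 7, against 42.6% and 40.5%. Between these lines the shares over all genes were so high that the members' counts are no result about the members. The normoxic counts of NDUFA4L2 in HKC-8 cells were at or near the limit of detection, so its differences depend on few reads: without normoxic HKC-8 replicate 1 they were 3.63 (RCC4) and 4.34 (HepG2). NDUFA4L2 passed the filter on low counts in this fit only through RCC4 and HepG2 samples, where it was higher. Its calls against HKC-8 cells are therefore no independent support.

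HepG2 cells were higher than RCC4 cells in HIGD1A (log2 difference 1.67) and lower in CHCHD4 (-0.80), COX4I1 (-0.67), HIGD2A (-0.45) and NDUFA4 (-0.27), 1 higher and 4 lower of 7 tested, against 45.3% and 38.1%. The median of all genes was 0.11 higher in HepG2 than in RCC4 cells in this fit. The NDUFA4 groups overlapped, and its call (edgeR adjusted p = 0.0352) was lost without normoxic RCC4 replicate 2 (log2 difference -0.27, adjusted p = 0.0685), RCC4 replicate 3 (-0.24, adjusted p = 0.0984) or HepG2 replicate 3 (-0.13, adjusted p = 0.148). LONP1 was the tested member not called between any of the lines in normoxia, at -0.13 (RCC4 minus HKC-8), -0.12 (HepG2 minus HKC-8) and 0.01 (HepG2 minus RCC4). Without normoxic HKC-8 replicate 3, it was called lower in RCC4 (log2 difference -0.24, edgeR adjusted p = 0.00228) and in HepG2 cells (-0.27, edgeR adjusted p = 8.65e-04) than in HKC-8 cells.

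Levels of different genes were compared per kilobase of merged exons. In normoxic HKC-8 cells HIGD1A stood highest at 69.3 CPM per kilobase, followed by HIGD2A (58.8), COX4I1 (42.2), LONP1 (29.8), CHCHD4 (16.3) and NDUFA4 (14.8), of which CHCHD4 and NDUFA4 overlapped. In normoxic RCC4 cells the order was HIGD2A (112 CPM per kilobase), COX4I1 (87.7), NDUFA4 (74.9), HIGD1A (33.5), LONP1 (25.9) and CHCHD4 (23.5), with no overlap between neighbours. In normoxic HepG2 cells it was HIGD1A (105 CPM per kilobase), HIGD2A (80.6), NDUFA4 (61.1), COX4I1 (54.3), LONP1 (25.7) and CHCHD4 (13.3), of which NDUFA4 and COX4I1 overlapped. NDUFA4L2 and then COX4I2 were last in each of these groups. The order depends on the length used, since the merged exons of COX4I1 span 4816 bases and its canonical transcript 763. Per kilobase of canonical transcript COX4I1 stood first in all 3 normoxic lines, at 266 CPM in HKC-8, 342 in HepG2 and 554 in RCC4 cells, and NDUFA4L2 and COX4I2 were again last. Per kilobase of the longest transcript NDUFA4 stood first in normoxic RCC4 cells (127 CPM) and HIGD1A in the other lines.

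Most of the other tested subunits of complex IV fell in RCC4 and HepG2 cells, where 24.2% and 19.2% of all genes tested fell. Of 14 nuclear-encoded subunits besides the members, 9 were tested in RCC4 cells and 7 fell, led by COX7A2 (log2 fold change -0.30) and COX8A (-0.24), and the median log2 fold change was -0.15 against 0.00 over all genes. Of 10 tested in HepG2 cells 7 fell, or 6 by DESeq2, among them COX7B (log2 fold change -0.64), with a median of -0.25 against 0.00. The testis form COX6B2 is 1 of the 7 (-1.17, from 0.402 to 0.177 CPM, edgeR adjusted p = 0.0494). It passed the filter on low counts only with its normoxic samples, where it was higher, so its call is no independent support. In HKC-8 cells 0 of 9 were called by edgeR or by DESeq2, 1 had an unadjusted p under 0.05 in edgeR, and the median was -0.11. With the replicate block 3 fell, COX6B1 (log2 fold change -0.29), COX7A2 (-0.19) and COX7C (-0.18), against 21.6% of all genes. COX6C was not called in any line. With the total count alone 9 of 9 fell in RCC4 and 9 of 10 in HepG2 cells.

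Among 25 assembly factors of complex IV, 1 rose and 10 fell in HepG2, 1 rose and 7 fell in HKC-8, and 3 rose and 12 fell in RCC4 cells. Over all genes tested 19.9% rose and 19.2% fell in HepG2, 11.2% and 9.12% in HKC-8 and 25.9% and 24.2% in RCC4 cells. With the replicate block 2 of the 25 rose and 9 fell in HKC-8 cells, against 21% and 21.6% of all genes. COX20, the chaperone of subunit II, rose in all 3 lines (log2 fold changes 0.35, 0.41 and 0.20 in HKC-8, RCC4 and HepG2), but not in HepG2 cells with the total count alone, where 0 of the list rose and 14 fell. In RCC4 cells 2 rose and 16 fell with that scaling. COX16, SCO1 and TACO1 fell in all 3 lines, as did COA7 (-0.57, -0.55 and -0.62), COA3 (-0.42, -0.41 and -0.49), a partner of newly made subunit I, and COA6 (-0.48, -0.35 and -0.63), which takes part in copper delivery. COX14 fell most in HepG2 cells (-0.74). The copper-binding COX19 rose in RCC4 cells (0.26).

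Genes of proteins that CHCHD4 imports or works with were mostly lower or not called. The share of all genes that fell was 9.12% in HKC-8 (21.6% with the replicate block), 24.2% in RCC4 and 19.2% in HepG2 cells. Of 21 such genes, 4 fell in HKC-8 cells, among them CHCHD1 (log2 fold change -0.33), a protein of the mitochondrial ribosome, and 11 fell with the replicate block. Of 20 tested in RCC4 cells 15 fell and 0 rose, led by the small import chaperones TIMM8A (-0.44) and TIMM10 (-0.42). In HepG2 cells 8 fell, led by CMC2 (-0.85) and TIMM8A (-0.72), and 1 rose, the complex I subunit NDUFA8 (0.18). With the total count alone 14 fell and 0 rose there, and 18 fell in RCC4 cells. CHCHD1 and TIMM9 fell in all 3 lines. GFER, the sulfhydryl oxidase that reoxidizes CHCHD4, fell in RCC4 cells (-0.19, edgeR adjusted p = 0.0053).

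The other mitochondrial proteases were called in both directions, as were genes at large, so the counts of the reported fits are no result about proteases. Over all genes tested 11.2% rose and 9.12% fell in HKC-8, 25.9% and 24.2% in RCC4 and 19.9% and 19.2% in HepG2 cells. Of 16 tested in each line, 0 rose and 1 fell in HKC-8 cells, or 8 fell with the replicate block, against 21.6% of all genes. In RCC4 cells 2 rose, PITRM1 (log2 fold change 0.24) and PMPCB (0.11), and 4 fell, led by ATP23 (-0.44) and OMA1 (-0.42), against 1 and 8 with the total count alone. In HepG2 cells 2 rose, IMMP2L (0.49) and CLPX (0.25), the unfoldase of the matrix protease ClpXP, and 3 fell, led by IMMP1L (-0.58) and ATP23 (-0.42). ATP23 fell in all 3 lines and most in HKC-8 cells (-0.87). The median log2 fold change of the list was -0.16 in HKC-8 and -0.04 in RCC4 cells, and 0.04 in HepG2 cells, where it was -0.05 with the total count alone.

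Of the factors described to act on the COX4I2 promoter, RBPJ rose in all 3 lines (log2 fold changes 0.48, 0.61 and 0.68 in HKC-8, RCC4 and HepG2), CXXC5 was called higher in RCC4 cells (0.12), and CHCHD2 was not called in any line. With the total count alone 1 of these 3 rose and 1 fell in RCC4 and in HepG2 cells. HIGD1B, HIGD1C and HIGD2B, the other genes of the HIG1 family, were too low to be tested. Among the hypoxia-induced genes, BNIP3, a mitophagy receptor, rose by 2.69, 3.26 and 2.51 on the log2 scale in HKC-8, RCC4 and HepG2 cells, and MIR210HG, the host of miR-210, by 3.25, 3.23 and 4.36. BNIP3L rose by 3.44 in HepG2 cells. FUNDC1, placed on the same list, did not rise, with a fall in HKC-8 cells (-0.35) and no call in the others.

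**Figure D4:**
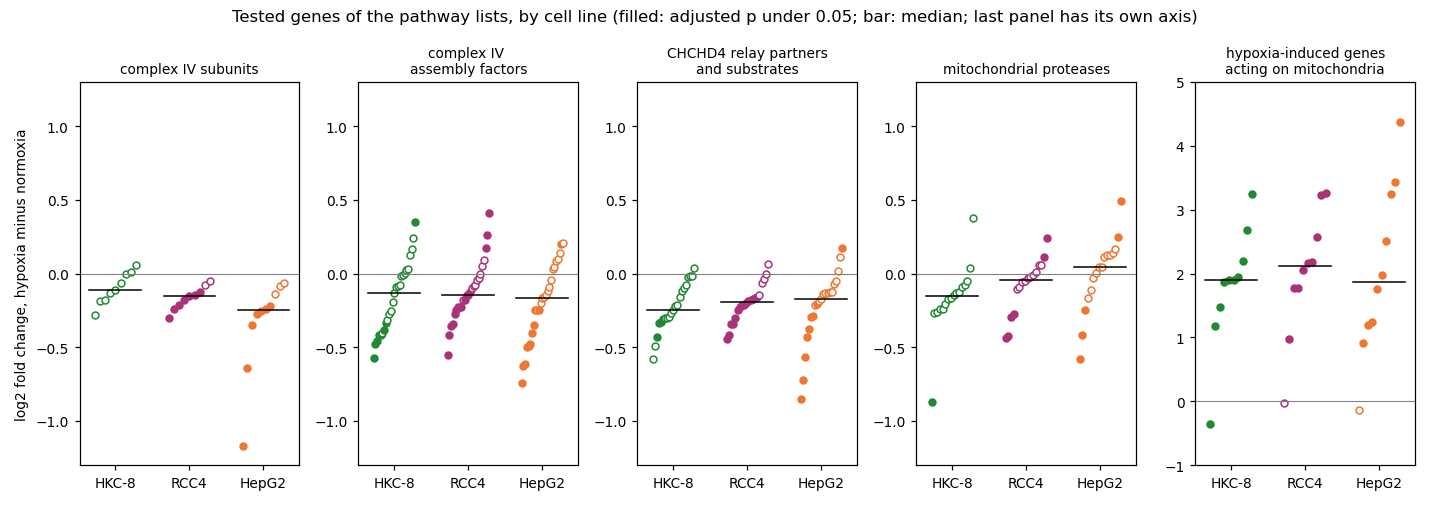
The log2 fold change in hypoxia (vertical axes) of the tested genes of 5 lists in HKC-8 (green), RCC4 (purple) and HepG2 cells (orange), with filled points where the edgeR adjusted p was under 0.05 and bars at the median. Complex IV subunits, with medians of -0.11, -0.15 and -0.25, lay mostly below 0, and the genes listed as hypoxia-induced, on an axis of their own, lay above 0 except FUNDC1.

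The genes whose log2 CPM was most like that of NDUFA4L2 over the 18 samples were RNF224 (Pearson's r = 0.90), AKNA (0.89), IRF2BPL (0.88), ABCA7 (0.87) and MAP3K10 (0.87), out of 15307 genes. ABCA7, a lipid transporter, went from 8.21 to 56.3 CPM in HepG2 cells. The genes most like LONP1 were MAFF (0.94), ALKBH5 (0.94), PPP2R5B (0.92), ANKZF1 (0.92) and STC2 (0.91). ANKZF1, a factor of stalled ribosome rescue, went from 23.9 to 99.7 CPM in HepG2, from 33.7 to 97.1 CPM in HKC-8 and from 17.1 to 41.8 CPM in RCC4 cells. These values describe samples that share line and condition, and COX4I2 was too low for such a ranking.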

How the data were processed

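PolyA+ RNA from 3 cell lines, each normoxic or hypoxic, was sequenced (18 samples, 3 replicates per condition). The authors trimmed adapters with Trim Galore 0.3.3, aligned reads to GRCh37 with TopHat 2.0.8b and Bowtie 1.0.0, removed fragments that did not map uniquely with SAMtools 0.1.19 and counted reads per UCSC-defined gene with HTSeq 0.5.4p3 in intersection-strict mode. Raw read counts per gene were deposited. Reads shared with near-identical copies are therefore missing.

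From the counts onwards, edgeR 4.0.16 in R 4.3.3 was used with filterByExpr, TMM scaling and its quasi-likelihood test, 1 cell line per fit, with Benjamini-Hochberg adjustment over all genes tested and a threshold of 0.05. Adjusted p-values are from this test unless DESeq2 (1.42.0) is named. The SE is the log2 fold change over the square root of F, and 95% intervals of fold changes use the normal quantile. With so few samples these intervals are narrower than the F test would give. That of HIGD1A in RCC4 cells ended at -0.0015, although its unadjusted edgeR p was 0.058. The interaction was fitted on HKC-8 and HepG2 samples, and normoxic lines in a fit of 9 samples. Ratios within pairs were tested by exact two-sided permutation within lines. Gene lengths came from GENCODE v44lift37, with Python 3.11.15 and Biopython 1.88. The test was checked on simulated counts with 200 known changes.

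The 8 genes were given by name, and they and the pathway lists were chosen with earlier results of these data known. From each list the text names the 2 genes with the largest called rise and the 2 with the largest called fall in each line, and genes called in all 3 lines or singled out after their values were seen. A gene that this rule would name is not reported here. Same-numbered normoxic and hypoxic samples deviated together in HKC-8 cells (correlation across genes 0.109 to 0.453), so the replicate number was taken to pair them, and not in all pairs of RCC4 (-0.0103 to 0.0333) or HepG2 cells (0.0617 to 0.184). Floors of 3 counts and 95% counting intervals cover counting error only. No replicates were alike within sampling noise. Alternatives were no filter on low counts, DESeq2, its size factors in edgeR, at least 10 counts in every sample, the total count alone, 1 fit of all 18 samples, the replicate block, other pseudocounts (1 and 5), each line and each sample left out, and the length of the longest transcript. The length of the canonical transcript was added after seeing the data.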

Additional observations from a re-analysis of the deposited data

Results flagged for a closer look

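The change in hypoxia of the ratio of HIGD1A to HIGD2A was 0.58 higher on the log2 scale in RCC4 than in HepG2 cells. It was singled out because every hypoxic RCC4 sample lay above every normoxic one and every hypoxic HepG2 sample lay below every normoxic one. The difference itself was not tested, and the exposures given for these lines differ, so line and exposure cannot be told apart.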

How the results depend on the processing

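Among the fold changes of single members, and apart from single samples left out, 278 values kept their direction and side of the threshold, 14 passed it only under an alternative, 2 passed it only in the reported fit and 8 reversed. The number of members called in HKC-8 cells was 1 with at least 10 counts in every sample, 4 in a fit of all 18 samples and 4 with the replicate block, against 2 as reported, and 1 to 2 with each sample left out. In RCC4 cells it was 2 in the fit of all 18 samples against 4. The number whose response differed in HepG2 from HKC-8 cells was 1 by DESeq2, 1 with the total count alone and 1 with the replicate block, against 0, and 0 to 1 with each sample left out. The pairing by replicate number changed no other call but CHCHD4 in HepG2 cells (adjusted p = 0.0430), where the numbers do not pair the samples. COX4I2 was tested in HepG2 cells only without the low-count filter (edgeR adjusted p = 0.0197). The cause of these changes was not tested.

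The average change of NDUFA4L2 over NDUFA4 was 2.24 with permutation within the replicate block (exact p = 0.0938), 1.52 without HKC-8 and 0.88 without HepG2 cells, and 1.92 to 2.56 with each sample left out, where the exact permutation p rose to 0.0505 to 0.0798 for 6 of 18 samples. Without RCC4 cells this average lay between the changes in HKC-8 (3.67) and HepG2 cells (4.95). For COX4I2 over COX4I1 it was -0.021 without HepG2 cells and 0.86 to 1.22 with each sample left out. For HIGD1A over HIGD2A it was -0.29 without RCC4 and 0.0016 without HepG2 cells.

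Values near 0 reversed. In response, HIGD2A was -0.036 with the total count alone, and CHCHD4 -0.010 with at least 10 counts in every sample and -0.10 with the total count alone. LONP1 in normoxic HepG2 against RCC4 cells was -0.022 with median-of-ratios size factors, -0.022 by DESeq2, -0.055 without the filter, -0.017 with at least 10 counts and -0.0090 with the total count alone. With each sample left out, the ranges that crossed 0 were -0.058 to 0.069 (COX4I1) and -0.22 to 0.0076 (HIGD2A) in HKC-8, -0.063 to 0.035 (COX4I1) and -0.057 to 0.036 (HIGD2A) in HepG2 cells, -0.018 to 1.80 (NDUFA4L2), -0.074 to 0.042 (COX4I1), -0.12 to 0.013 (LONP1), -0.028 to 0.17 (HIGD2A) and -0.063 to 0.058 (CHCHD4) in response, and -0.032 to 0.040 for LONP1 in normoxic HepG2 against RCC4 cells. Depth limits NDUFA4L2 in HKC-8 and RCC4 cells and COX4I2 in every line, where a few reads set the values.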
